A study of Mus musculus with 1 sample.

Results

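The interferon-response genes described here are 48 named targets of interferon signalling, chosen with earlier results of these data known. Of these, 47 are among the 32285 genes of the deposited matrix. Mx1, an antiviral GTPase gene that is defective in most inbred laboratory mice, is not among them, so its level was not analysed here. The members were measured in T cells isolated by negative selection from the blood of 1 vehicle-treated mouse with small cell lung cancer (SCLC). This mouse model has a C57BL/6 background and carries conditional deletions of the tumour suppressor genes Rb1 and Trp53 that adenoviral Cre given into the trachea triggers in infected airway cells. Mice entered the study at an age of at least 6 weeks, and the vehicle was phosphate-buffered saline given every 3 days. The mouse on combined treatment was not analysed here, and neither was an untreated mouse, so nothing below compares treatments.

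The library is a 10x Genomics droplet library in which every captured RNA molecule carries a unique molecular identifier (UMI) and the barcode of its cell. Barcodes with at least 1331 UMIs were taken as cells (1600 barcodes), with a median of 3934.5 UMIs (range 1334 to 18399). Cells were classed by their own UMIs: 366 had Cd4 UMIs only (CD4 cells), 598 had Cd8a or Cd8b1 UMIs and none of the cytotoxic granzyme genes Gzmk, Gzma and Gzmb (CD8 cells without granzyme), 108 had Cd8a or Cd8b1 UMIs with a granzyme UMI (CD8 cells with granzyme) and 90 had UMIs of Cd79a, a B cell receptor component. UMIs of more than 1 of these classes were found in 65 cells and of none in 373. The T cell receptor clonotype was known for 964 cells. Markers matched the class names: 24.4 to 35.6 UMIs per 10000 came from 6 T cell marker genes in the 3 T classes and 0.688 in Cd79a cells, where 6 B cell markers gave 77.5. All values come from 1 library of 1 mouse, so there is no replicate, no test and no p-value, and every interval, given after its value, is a 95% exact interval (Poisson for a level, conditional for a ratio, Clopper-Pearson for a share of cells) that covers counting error only.

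Interferons are antiviral cytokines. Type I interferons (alpha and beta) bind the receptor IFNAR1/IFNAR2, whose kinases JAK1 and TYK2 activate a complex with STAT2 and IRF9 that binds the interferon-stimulated response element in promoters. Interferon gamma, made mostly by T and NK cells, acts through IFNGR1/IFNGR2, JAK1 and JAK2 on promoters with the gamma-activated site. The induced proteins sense foreign nucleic acid, degrade or trap viral RNA, attack pathogen vacuoles or turn the signal off again, and a low tonic level of many of them is present in resting lymphocytes.

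Promoter sequences (RefSeq, GRCm38.p6, 250 bases before to 50 after a start site) were on hand for 36 of the members. The letters GAAA, any 2 bases and again GAAA, the core of the interferon-stimulated response element, were found on either strand in 21 of these 36 (58.3%) and in 3.99% of all 27025 genes with such a sequence, and the letters TTCNNNGAA of the gamma-activated site in 9 (25%) and 9.55%. The 2 patterns may overlap each other, and a match is a description of the letters, not of a bound site. The stretches below, all upstream of the annotated gene, belong to genes with a match whose values the results turn on. Sp100, Ifi47 and Irf7 also lead in the results, but their sequences held neither pattern. No sequence was on hand for Rtp4 and Zbp1. Isg15 and Ifit1 had the largest ratios of the genes compared in the high cells, and Igtp and Bst2 had large ones. Rsad2 is printed for its level in erythroid-list cells, and Socs1 and Irf1 stood apart. Each is 80 bases on the gene's own strand, 5′ to 3′, with the matched letters in capitals (TTTC, 2 bases and TTTC where the response element reads on the other strand). They lie at chr4:156200847-156200926 (Isg15, minus strand), chr19:34640755-34640834 (Ifit1, plus), chr11:58199476-58199555 (Igtp, plus), chr8:71537553-71537632 (Bst2, minus), chr12:26456523-26456602 (Rsad2, minus), chr16:10785570-10785649 (Socs1, minus) and chr11:53769894-53769973 (Irf1, plus).
Isg15: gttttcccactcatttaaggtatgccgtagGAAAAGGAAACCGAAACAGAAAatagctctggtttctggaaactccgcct
Ifit1: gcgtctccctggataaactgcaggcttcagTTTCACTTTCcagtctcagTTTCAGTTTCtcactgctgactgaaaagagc
Igtp: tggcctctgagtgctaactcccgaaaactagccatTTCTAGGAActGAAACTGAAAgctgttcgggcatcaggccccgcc
Bst2: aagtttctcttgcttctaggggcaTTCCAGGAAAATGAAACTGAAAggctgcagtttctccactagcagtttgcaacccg
Rsad2: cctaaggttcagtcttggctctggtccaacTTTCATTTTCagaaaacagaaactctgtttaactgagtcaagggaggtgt
Socs1: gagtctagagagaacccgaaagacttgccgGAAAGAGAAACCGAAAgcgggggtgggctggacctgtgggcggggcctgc
Irf1: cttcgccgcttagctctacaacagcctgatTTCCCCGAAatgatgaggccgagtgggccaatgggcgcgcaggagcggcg
Isg15 holds 3 overlapping matches starting 78, 72 and 66 bases before the start site, and Ifit1 holds 2 at 104 and 85 bases. Both patterns were found in Igtp, where they are separate, and in Bst2, where they overlap, and in Irf1 only the gamma-activated pattern was found. Socs1 carries 2 overlapping response-element matches at 83 and 77 bases, and Rsad2 has 1 at 120 bases.

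Member transcripts were a small and uneven part of the cells' RNA. Over all cells the members gave 26516 of 7974264 UMIs, a rate of 33.3 (32.9 to 33.7) UMIs per 10000. The 4 most frequent made up 40.2% of these UMIs and the 10 most frequent 58.5%; the sparsest 6 had fewer than 100 each, and none of the 47 had fewer than 10. Sp100, a component of PML nuclear bodies, led with 4872 UMIs in 83.6% of cells. It was followed by Ifi203 (2192 UMIs), of the IFI200 family of nucleic acid-binding proteins, by the immunity-related GTPase Ifi47 (2077) and by Irf1 (1524), a transcription factor downstream of interferon gamma. Trim30a (1038), the tethering protein Bst2 (930), Samd9l (865), the guanylate-binding protein gene Gbp4 (695), the GTPase Igtp (692) and the schlafen gene Slfn8 (624) completed the 10 most frequent.

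The classical type I targets were sparser. Isg15, a ubiquitin-like protein that is joined to other proteins, had 359 UMIs in 142 cells, Ifit1, which binds viral RNA without a methylated cap, 242 UMIs in 96 cells, and Rsad2 (viperin) 201 UMIs in 54 cells. The sparsest were Oas2, a maker of the 2′-5′ oligoadenylates that activate RNase L (47 UMIs), and Ifi44 (13 UMIs in 12 cells). By role, the GTPases gave 22.9% of the member UMIs, the sensors and RNA editing genes 17.6%, the signalling genes 13.4%, the IFIT genes 2.85% and the OAS genes 1.98%. Free RNA, read from 20532 barcodes with 10 to 50 UMIs, carried the members at 20.6 (19.6 to 21.6) UMIs per 10000, below every cell class, so single UMIs of a member in a cell cannot be told from this background. Reads of the near-identical pairs Ifit3 and Ifit3b, of the Gbp and Oas1 families and of the overlapping neighbours Parp9 and Dtx3l may have been split or dropped in counting, so their single values are uncertain.

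**Figure D1:**
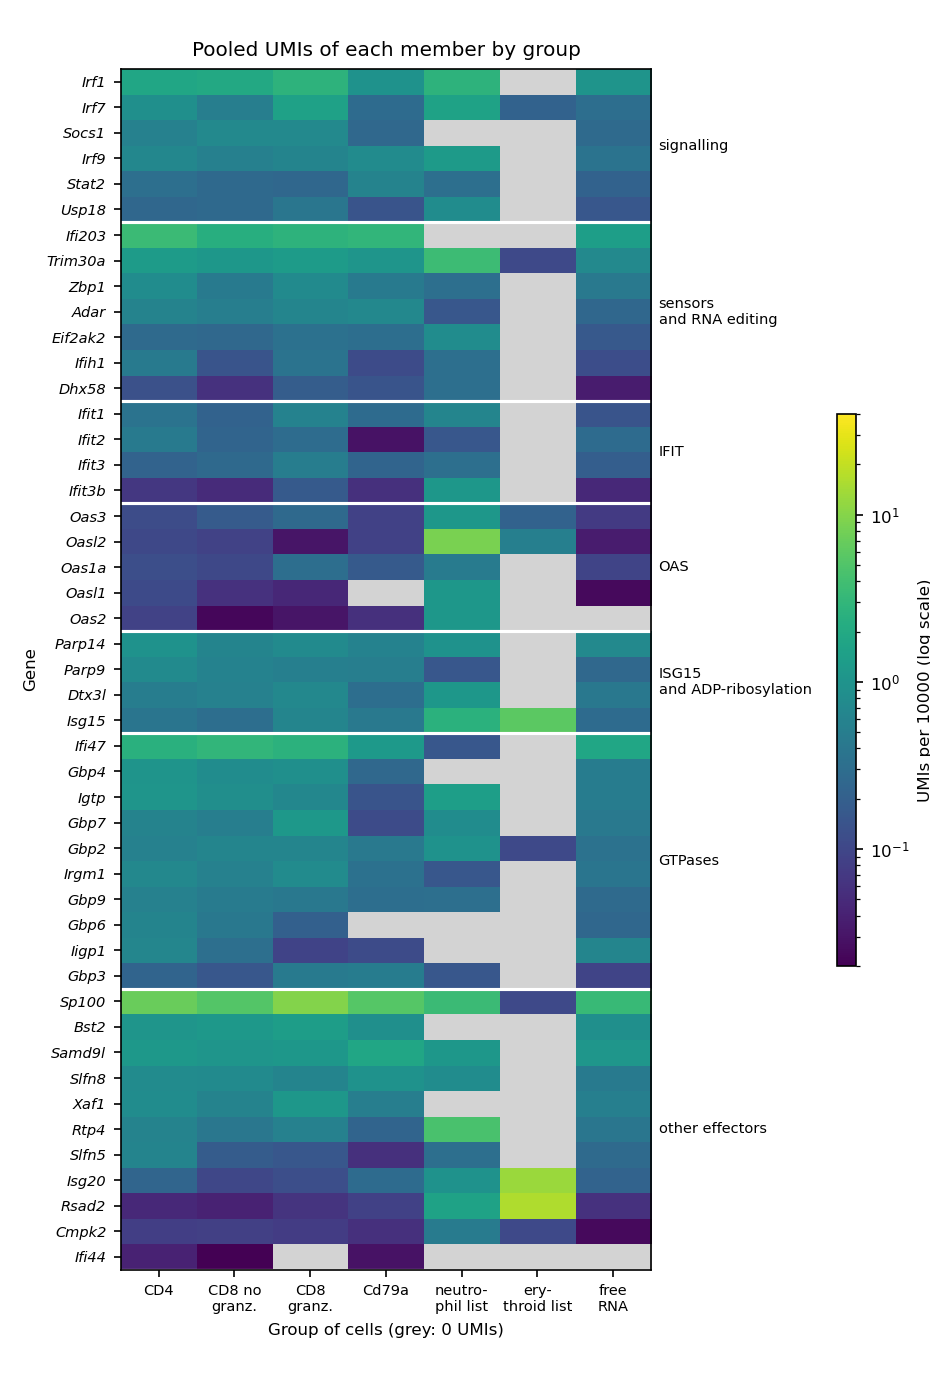
Pooled UMIs per 10000 (colour, log scale) of each member (rows, by role) in CD4 cells, CD8 cells without and with granzyme, Cd79a cells, cells led by neutrophil or erythroid markers, and free RNA; grey marks 0 UMIs. Sp100 was highest in all 4 classes. Erythroid-list cells, with few UMIs beside globin, were at 0 for most members and highest for Rsad2 and Isg20.

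Whether members vary together from cell to cell was asked first. Each cell of the 3 T classes with an ordinary ribosomal protein share (at least 10% of its UMIs, see the last results) was thinned to 2500 UMIs, which left 674 cells. For each gene the cells were ranked within their class by the sum of the members other than that gene, and the top 10% (68 high cells) were set against the remaining 606. The high cells are a range of a score and not a cell type. Each class gives the same share of its cells by construction. The median depth before thinning was 6753.5 UMIs in high cells and 6464.5 in the rest, with ribosomal shares of 31.2% and 31.2%.

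Of the 28 members with at least 50 thinned UMIs, 26 were past 1.5-fold higher in the high cells and 0 were past it in the other direction, against 10.0% and 14.3% of the 4710 genes with as many UMIs. The median ratio was 3.03 over these members and 0.987 over all compared genes. The other 19 members of the matrix were too sparse for the comparison. Ratios of at least 5 were reached by 4 of the compared members and by 0 of the 4682 other genes. With the sparse members included, 15 members reached 5, many on few counts. With the top 5% or 20% of cells, a smaller thinning depth, another random draw or predicted doublets left out, 24 to 26 of 28 compared members were past 1.5-fold higher, and with low-ribosomal cells kept 31 of 35 were.

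Ifit1 had 40 thinned UMIs in 22 of the 68 high cells and 15 in 12 of the 606 others, a ratio of 23.8 (12.8 to 46.3). Isg15 had 58 and 28 UMIs, a ratio of 18.5 (11.6 to 30.1). These were the largest ratios of all compared genes, and both promoters carry several response-element matches (sequences above). Next came Rtp4, a receptor transporter protein, at 5.83 (3.72 to 9.04), the Z-nucleic acid sensor Zbp1 at 5.32 (3.56 to 7.87), and Irf7, the transcription factor that drives interferon alpha genes, at 4.33 (3.02 to 6.12). The Irf7 promoter sequence held neither pattern, and none was on hand for Rtp4 and Zbp1. The GTPases Irgm1, Igtp and Iigp1 had ratios of 4.08 (2.62 to 6.25), 3.81 (2.68 to 5.35) and 3.52 (1.88 to 6.31), and Bst2, which holds budding virions at the cell surface, 3.76 (2.79 to 5.03). Gbp9 completed the 10 largest at 3.39 (1.89 to 5.85). The 3 most frequent members had smaller ratios, at 1.51 (1.24 to 1.81) for Sp100, 1.53 (1.20 to 1.94) for Ifi47 and 1.74 (1.33 to 2.25) for Ifi203.

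Irf1 and Socs1, the inhibitor of JAK kinases, were the members not past 1.5-fold, at 1.18 (0.827 to 1.65) and 0.768 (0.359 to 1.46). The Socs1 promoter carries 2 response-element matches, so the pattern was also found in a member that was not higher with the others. Among the sparse members Ifit3 had 33 UMIs in the high cells and 16 in the rest, Usp18, which removes ISG15 from proteins, 18 and 23, and Rsad2 6 and 0. Per UMI, all 3 were higher in the high cells, on few counts.

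Other genes of the pathway were mostly higher in the high cells too. Of 39 compared genes of a list of other interferon pathway genes, 28 were past 1.5-fold higher in the high cells and 0 were lower. Of all compared genes 10.0% and 14.3% were. The list was chosen with earlier results of these data known, so it is not independent support. Among the other genes with the largest ratios were the ubiquitin ligase gene Rnf213 (3.98, 2.75 to 5.69), Ifi35 (3.39, 2.19 to 5.16), Phf11b (3.15, 1.99 to 4.87), Herc6 (3.13, 1.92 to 4.95), the surface protein gene Ly6a (3.11, 2.44 to 3.92) and the IFIT relative Ifit1bl1 (2.92, 1.61 to 5.04). Olfr56 (3.43, 1.76 to 6.36) and Gm20559 (2.97, 1.86 to 4.60) were also among them, and like Ifit1bl1 they are not on the pathway list. Members with the response-element letters in their promoter had a median ratio of 3.81 (21 members) and those without 2.86 (15 members), sparse members included.

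**Figure D2:**
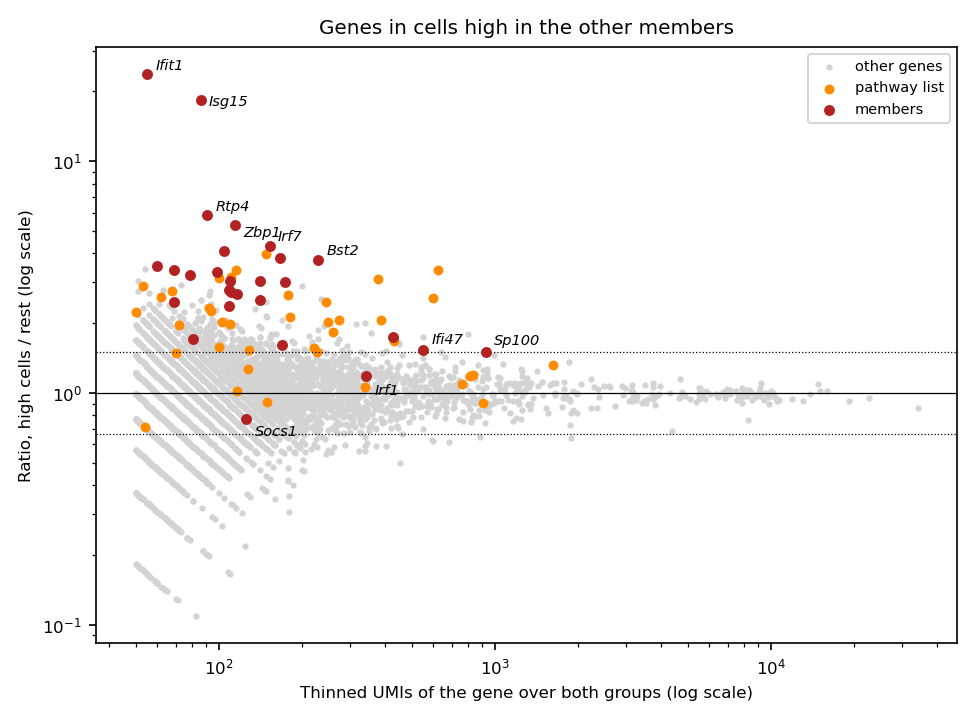
Each point is a gene with at least 50 thinned UMIs; the x axis gives its UMIs and the y axis the ratio between cells in the top 10% for the other members and the rest (both log scales; dotted lines at 1.5-fold). Members lie above 1 except Socs1, Ifit1 and Isg15 lie highest, and 6 genes with no UMI in the high cells are not drawn.

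The strongest signal came from few cells. Summed over the 4 IFIT genes, the 5 OAS genes and Isg15, 77.4% of 923 thinned T cells had no UMI, and 22 cells (2.38%, 1.5% to 3.59%) had 5 or more and together held 38.5% of these UMIs. The limit of 5 was set after the values were seen; with limits of 3 and 8 the share was 4.44% and 0.867%. Such cells were found in every class: 9 of 277 CD4 cells, 11 of 543 CD8 cells without granzyme, 2 of 103 with granzyme and 2 of 64 Cd79a cells, with intervals that overlap. Outside these classes, 13 of 247 cells with UMIs of no class (5.26%) and 2 of 53 with UMIs of more than 1 (3.77%) also reached 5. Among the 13 were 3 cells led by erythroid markers, a group with 54 Isg15 UMIs and 0 of Ifit1. The number of these genes per cell is given below for T cells only. Within the T classes the largest sums were 14 in a CD8 cell with granzyme, 13 in a CD4 cell and 12 in a CD8 cell without granzyme. Each of the 22 T cells expressed 3 to 6 of the 10 genes. Free RNA carried these genes at 1.19 UMIs per 10000, less than 1 UMI in 2500.

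A clonotype was read in 21 of these 22 cells, and they belonged to 21 different clonotypes, each seen in 1 cell. Over cells of any class, none of 69 thinned cells from clonotypes of 2 or more cells reached the limit, which allows a share of up to 4.35% at 3 counts (Clopper-Pearson upper bound 5.21%), and 30 of 805 cells (3.73%) from clonotypes of 1 cell did. The intervals of the 2 shares overlap. The variance of the thinned sum of all members was 5.67 times its mean in CD4 cells, 3.53 in CD8 cells without granzyme, 3.19 in CD8 cells with granzyme and 9.68 in Cd79a cells, where counting alone gives about 1. The sum ran from 1 to 58 UMIs around a median of 8 in CD4 cells and from 0 to 50 around 7 in CD8 cells without granzyme.

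**Figure D3:**
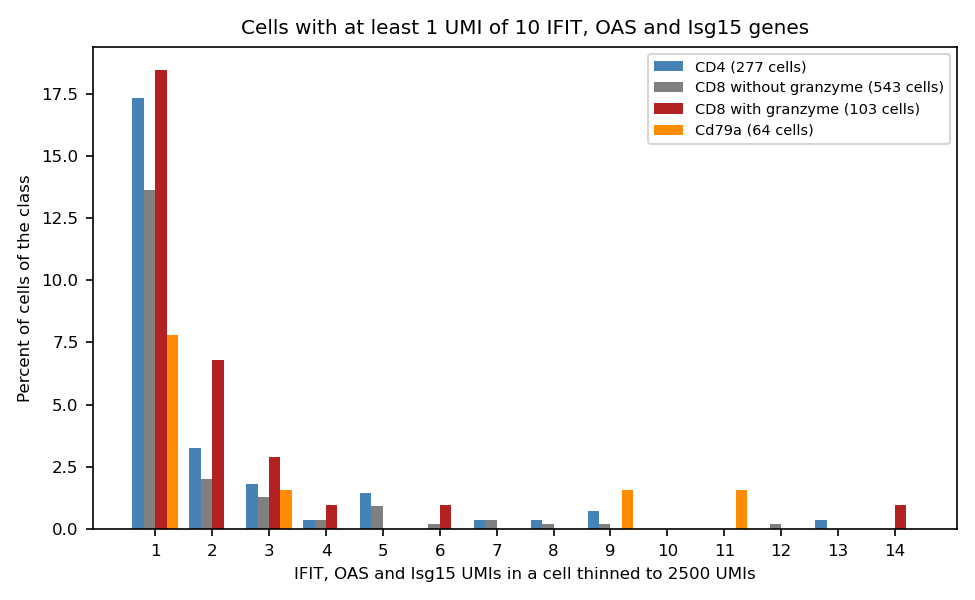
Percent of thinned cells of each class (y axis) by their UMIs of the 4 IFIT genes, 5 OAS genes and Isg15 (x axis); cells with none, 74.0% of CD4, 80.7% of CD8 without granzyme, 68.9% of CD8 with granzyme and 87.5% of Cd79a cells, are not drawn. Most cells with a UMI had 1, and a thin tail reached 14.

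CD8 cells with granzyme had the highest member level of the 4 classes. Their pooled rate was 40.4 (38.9 to 42.0) UMIs per 10000 against 29.9 (29.4 to 30.5) in CD8 cells without granzyme, a ratio of 1.35 (1.29 to 1.41). Sp100 alone, at 9.91 against 5.27 UMIs per 10000, made up 44.2% of the difference, and without it the ratio was 1.24. Of 38 members compared, 12 (31.6%) were past 1.5-fold higher and 2 lower, where 18.6% and 16.2% of all 7965 genes with at least 50 UMIs in both classes together were, and the other 9 members had fewer. The median ratio was 1.25 over members and 1.05 over all genes.

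In all, 11 members were past 1.5-fold higher with intervals that did not overlap. The share of all genes that met both conditions is not given, so these members are not shown to be unusual. The 9 of them with the largest ratios, beside Sp100, came from several roles. Oas1a was at 0.312 against 0.102 UMIs per 10000 (ratio 3.04, 1.69 to 5.33). Irf7 was at 1.56 against 0.518 (3.01, 2.35 to 3.85), with UMIs in 49 of 108 cells with granzyme and 135 of 598 without. The guanylate-binding protein genes Gbp3 and Gbp7 had ratios of 2.89 (1.79 to 4.57) and 2.23 (1.68 to 2.93), Ifit1 and Ifit3 of 2.62 (1.73 to 3.89) and 1.87 (1.22 to 2.81), and Isg15 of 2.08 (1.42 to 2.99). The double-stranded RNA sensor Ifih1 (MDA5) was at 2.46 (1.44 to 4.05) and Xaf1, a partner of the apoptosis inhibitor XIAP, at 1.85 (1.40 to 2.42). Lower were Gbp6 at 0.486 (0.253 to 0.854) and the vacuole-attacking GTPase Iigp1 at 0.288 (0.104 to 0.644), which had 6 UMIs in 5 cells with granzyme and 127 in 86 without. The guanylate-binding protein genes thus lay on both sides.

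Ifng, the gene of interferon gamma, had 25 UMIs in 19 of 108 CD8 cells with granzyme, 0 in those without and 5 in 4 CD4 cells. Of the other ligand genes, Ifna1, Ifna2, Ifna4, Ifnb1, Ifnl2 and Ifnl3 had 0 UMIs in these classes, and the interferon lambda receptor chain gene Ifnlr1 had 1. Of 45 compared pathway genes 10 were past 1.5-fold higher and 5 lower, where 18.6% and 16.2% of all compared genes were. As a list they were thus not far from the background. Ly6a (3.59, 2.94 to 4.37), Phf11b (3.14, 2.38 to 4.12) and Ifi27l2a (2.03, 1.71 to 2.39) were higher, as was Il10rb (1.78, 1.40 to 2.26), the chain shared by the receptors of interleukin-10 and interferon lambda. The interferon gamma receptor chains diverged: Ifngr2 had 2 UMIs in CD8 cells with granzyme and 120 without (0.101, 0.0121 to 0.375), and the ligand-binding chain Ifngr1 was at 1.28 (1.14 to 1.44). Ifnar1 (1.06, 0.760 to 1.45) and Jak2 (1.07, 0.783 to 1.45) were close to 1, and Ifnar2 was at 1.38 (1.06 to 1.78), Jak1 at 1.35 (1.23 to 1.48) and Tyk2 at 1.63 (1.06 to 2.44).

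Other measures differed between these classes, and their part in the result was not tested. The 4 NK cell markers gave 1.58 UMIs per 10000 with granzyme and 0.177 without, and ribosomal protein genes took 21.5% and 29.8% of UMIs. With ribosomal protein and mitochondrial UMIs taken out of the denominator the ratio of the sums was 1.20, and within cells of ordinary ribosomal share it was 1.42.

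CD4 cells also had more member UMIs than CD8 cells without granzyme, the same comparison class as above: 36.7 (35.8 to 37.7) against 29.9 UMIs per 10000, a ratio of 1.23 (1.19 to 1.27). Of 40 members compared, 10 (25%) were past 1.5-fold higher and 1 lower, against 19.7% and 6.19% of 8427 genes, and the medians were 1.22 and 1.18, so as a list the members were close to the background. The 9 members past 1.5-fold higher whose intervals did not overlap are named here. The share of all genes that met both conditions is not given, so these members are not shown to be unusual. The schlafen gene Slfn5 was at 0.621 against 0.184 UMIs per 10000 (3.37, 2.44 to 4.65), with UMIs in 60 of 366 and 47 of 598 cells. Ifih1 was at 0.442 against 0.146 (3.02, 2.08 to 4.40) and the exonuclease gene Isg20 at 0.241 against 0.0999 (2.42, 1.49 to 3.92). Iigp1 (2.01, 1.53 to 2.65), Ifit2 (1.94, 1.39 to 2.71), Zbp1 (1.79, 1.40 to 2.27), Irf7 (1.72, 1.37 to 2.16), Ifit1 (1.66, 1.16 to 2.36) and the ADP-ribosyltransferase gene Parp14 (1.56, 1.26 to 1.93) followed.

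Iigp1 thus lay above the comparison class in CD4 cells and below it in CD8 cells with granzyme, at 0.655, 0.325 and 0.0936 UMIs per 10000 in CD4 cells, CD8 cells without and CD8 cells with granzyme. Isg15, at 0.386 against 0.307 (1.26, 0.898 to 1.74), and the most frequent signalling member Irf1 (0.917, 0.794 to 1.06) had intervals that include 1. In the pathway list 9 of 44 genes were past 1.5-fold higher and 1 lower, where 19.7% and 6.19% of all compared genes were. This list too was close to the background. The largest ratios were those of Ly6a (5.17, 4.47 to 6.0) and Ifi27l2a (3.59, 3.22 to 4.0), and of the signalling genes Jak2 (1.82, 1.51 to 2.18) and Ifngr2 (1.77, 1.32 to 2.37) were higher and Il10rb (0.491, 0.363 to 0.655) was lower. Ifnar1 was at 1.42 (1.15 to 1.74), Ifnar2 at 1.04 (0.840 to 1.28), Jak1 at 1.02 (0.946 to 1.10), Ifngr1 at 0.893 (0.810 to 0.984) and Tyk2 at 0.836 (0.558 to 1.22). The 15 CD4 cells with a UMI of the regulatory T cell gene Foxp3 had 34.2 (30.2 to 38.5) member UMIs per 10000 and the others 36.9 (35.9 to 37.9). Ribosomal protein genes took 19.3% of UMIs in CD4 cells, and without ribosomal protein and mitochondrial UMIs in the denominator the ratio of the sums was 1.07.

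**Figure D4:**
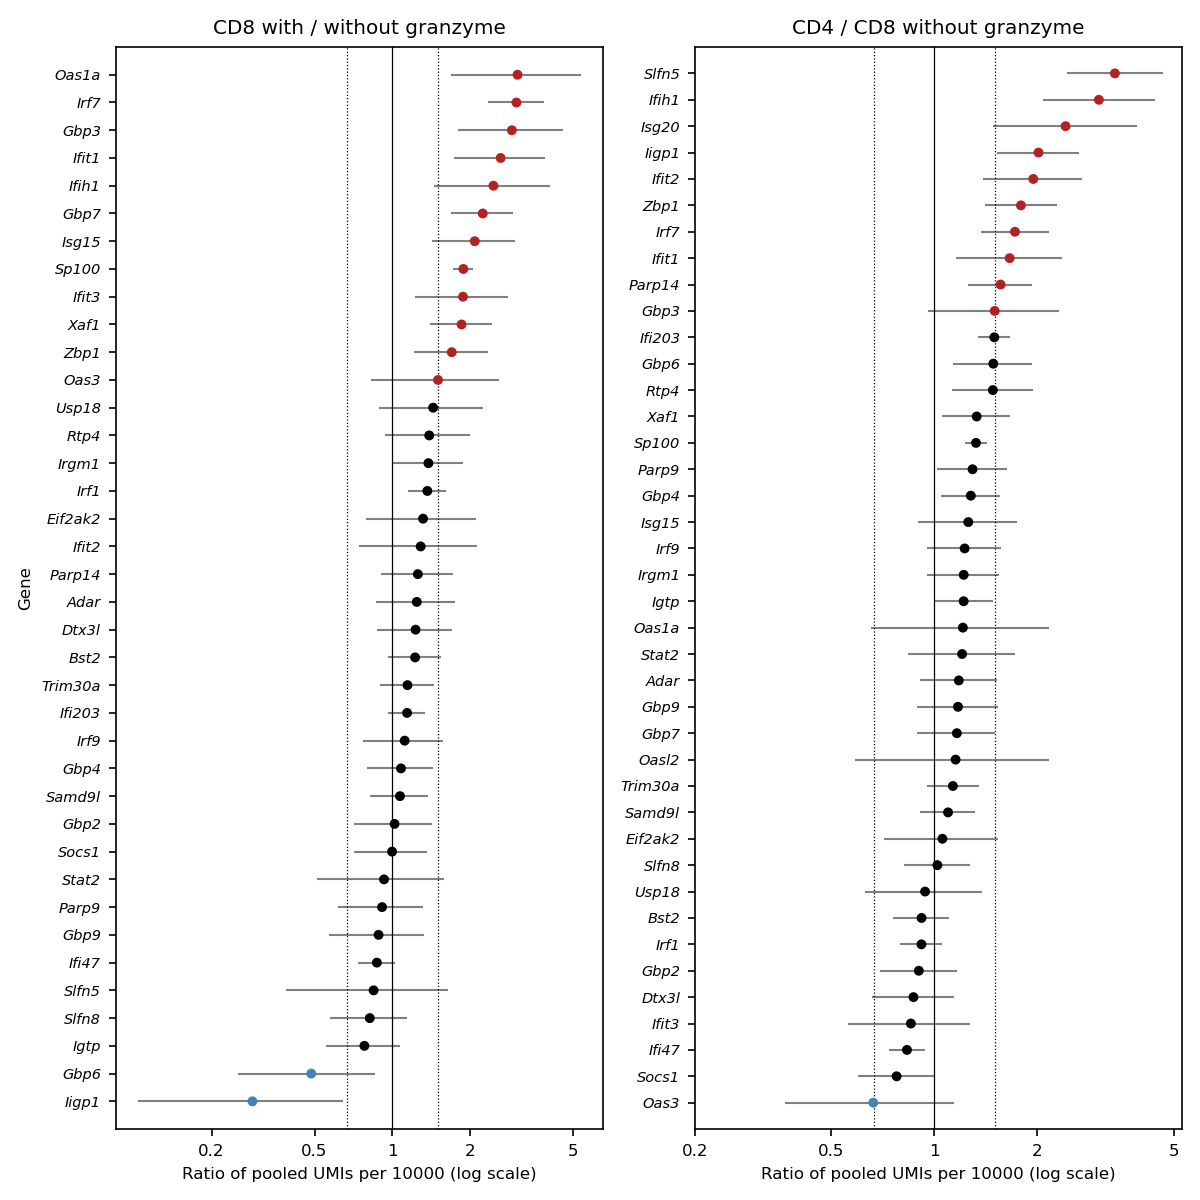
Ratio of pooled UMIs per 10000 (x axis, log scale) for each member with at least 50 UMIs in CD8 cells with against without granzyme (left) and in CD4 cells against CD8 cells without granzyme (right); bars are 95% exact intervals, dotted lines mark 1.5-fold, red and blue points lie past it. Both panels share CD8 cells without granzyme. Oas1a and Irf7 lead on the left, where Iigp1 is lowest, and Slfn5 and Ifih1 lead on the right.

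Cd79a cells, which have B cell markers, had the lowest member level of the 4 classes: 25.3 (23.7 to 27.1) UMIs per 10000 against 32.7 (32.2 to 33.2) in the 3 T classes together, a ratio of 0.775 (0.723 to 0.829). Of 42 members, 18 (42.9%) were past 1.5-fold lower and 5 higher, where 23.8% and 19.6% of 8876 genes were. The role group with the largest gap was the GTPases, at 3.41 UMIs per 10000 in Cd79a cells and between 7.74 and 8.49 in the T classes. Gbp6 had 0 UMIs in 90 Cd79a cells, which allows a rate of up to 0.0860 at 3 counts (exact Poisson upper bound 0.106), and 0.444 in T cells. Igtp (0.162, 0.0523 to 0.380), Gbp7 (0.192, 0.0520 to 0.496), Gbp4 (0.296, 0.135 to 0.566), Iigp1 (0.301, 0.0814 to 0.782) and Ifi47 (0.425, 0.305 to 0.577) were lower too. Of the other roles, Ifit2 (0.0987, 0.00248 to 0.557), Slfn5 (0.20, 0.0240 to 0.732), Socs1 (0.379, 0.172 to 0.726), Irf7 (0.398, 0.190 to 0.740) and Irf1 (0.483, 0.333 to 0.679) were lower.

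Gbp3 (2.35, 1.33 to 3.92), Stat2 (2.15, 1.29 to 3.39) and Samd9l (1.64, 1.24 to 2.13) went the other way. The sensors and RNA editing genes gave 5.76 UMIs per 10000 in Cd79a cells, between CD8 cells without granzyme (4.95) and CD4 cells (7.11). In the pathway list 11 of 46 genes were past 1.5-fold higher and 19 lower, where 19.6% and 23.8% of all compared genes were. Pml (5.33, 4.17 to 6.77), the scaffold of the bodies that hold Sp100, Trim25 (3.98, 2.97 to 5.25) and Ly6e (2.89, 2.68 to 3.10) were among the higher ones. Ifngr1 (0.442, 0.341 to 0.565) and Jak1 (0.587, 0.490 to 0.697) were among the lower ones. Ifngr2 (1.97, 1.22 to 3.03) and Jak2 (1.73, 1.29 to 2.29) were higher, and Ifnar1 (1.05, 0.688 to 1.53), Ifnar2 (0.816, 0.523 to 1.22), Il10rb (0.948, 0.607 to 1.42) and Tyk2 (0.751, 0.319 to 1.51) had intervals that include 1. A few cells held much of the sum here: without the 5 cells of highest member rate in each group the ratio was 0.664.

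By clonotype size the interval of the pooled ratio included 1. The 72 cells of clonotypes with 2 or more cells had 32.7 (30.9 to 34.6) member UMIs per 10000 and the 892 cells of single-cell clonotypes 33.7 (33.2 to 34.2), a ratio of 0.971 (0.916 to 1.03). Other measures gave lower ratios, 0.864 without ribosomal protein and mitochondrial UMIs in the denominator, 0.882 without Sp100, 0.903 as means over cells and 0.908 without the 5 highest cells of each group. The classes were not balanced, since 44 of the former and 53 of the latter were CD8 cells with granzyme, the class with the highest rate. Of 43 members, 2 were past 1.5-fold higher and 13 (30.2%) lower, against 16.4% and 18.5% of 8523 genes. Gbp3 was higher (2.96, 1.76 to 4.77), and Samd9l (0.609, 0.387 to 0.915), Socs1 (0.505, 0.274 to 0.857), Slfn8 (0.455, 0.247 to 0.772) and Iigp1 (0.353, 0.113 to 0.837) were lower. In the pathway list 7 of 45 genes were past 1.5-fold higher and 11 lower, where 16.4% and 18.5% of all compared genes were. The receptor genes Ifnar2 (1.65, 1.21 to 2.21) and Il10rb (1.60, 1.14 to 2.19) and the kinase gene Tyk2 (1.79, 1.01 to 2.97) were past it upwards. Ifnar1 (0.931, 0.601 to 1.38), Ifngr1 (1.33, 1.14 to 1.53), Jak1 (1.16, 1.02 to 1.32) and Jak2 (1.43, 1.01 to 1.98) were not. Ifngr2 had 5 UMIs in the larger and 169 in the single-cell clonotypes (0.430, 0.138 to 1.02). Tgtp1, another immunity-related GTPase, had 0 UMIs in the larger clonotypes and 184 in the single-cell ones. In cells of ordinary ribosomal share it was also lower in CD8 cells with granzyme than without (0.265, 0.0953 to 0.594). Within CD8 cells with granzyme it had 0 UMIs in larger and 6 in single-cell clonotypes, with an upper bound of the ratio of 1.38. The other single-gene ratios by clonotype size mix the classes in the same way. Ifitm1 had the largest ratio (13.2, 7.78 to 22.3), but its UMIs came from 2 and 7 cells. Within CD8 cells with granzyme the rate was 35.0 (32.6 to 37.5) in the 44 cells of larger clonotypes and 44.0 (41.9 to 46.2) in the 53 cells of single-cell clonotypes, a ratio of 0.795 (0.730 to 0.866), with ribosomal shares of 19.4% and 23.5%. These intervals leave out the spread between cells. The thinned sums had medians of 8 and 9 and variances of 2.46 and 3.86 times the mean, so the order is less certain than the intervals show.

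Clonotypes of similar size could differ more than the classes did. The largest clonotype, with T cell receptor beta genes TRBV12-2 and TRBJ1-6, had 9 cells and 111 member UMIs, 24.5 (20.2 to 29.5) per 10000. The second, with TRBV1 and TRBJ1-4, had 8 cells and 219 UMIs, 49.6 (43.3 to 56.7) per 10000, a ratio of 2.02 (1.60 to 2.57). Single cells of the largest clonotype ran from 18.1 to 27.7 per 10000 and those of the second from 28.4 to 64.7, with no overlap, although cells of a clonotype share an ancestor and are not replicates. The nearest cells, at 27.7 and 28.4, had 16 and 19 member UMIs, so counting error alone could reverse their order. Of their cells, 6 of 9 and 8 of 8 were CD8 cells with granzyme. Sp100 had 22 UMIs in the largest and 67 in the second clonotype (3.12, 1.90 to 5.31), and without it the rates were 19.7 (15.8 to 24.2) and 34.4 (29.2 to 40.4). Ifi27l2a of the pathway list had 4 UMIs in 2 cells of the largest and 49 in 7 cells of the second. Ifngr1 went the other way, with 55 UMIs in the largest and 21 in the second (0.392, 0.225 to 0.658). Only 6 pathway genes had at least 50 UMIs in both clonotypes together. Of these, 3 were past 1.5-fold higher in the second and 2 lower, and the share of all genes is not given. The other 5 clonotypes with at least 3 cells had pooled rates from 26.3 to 37.9. These clonotypes were set side by side after their values had been seen.

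**Figure D5:**
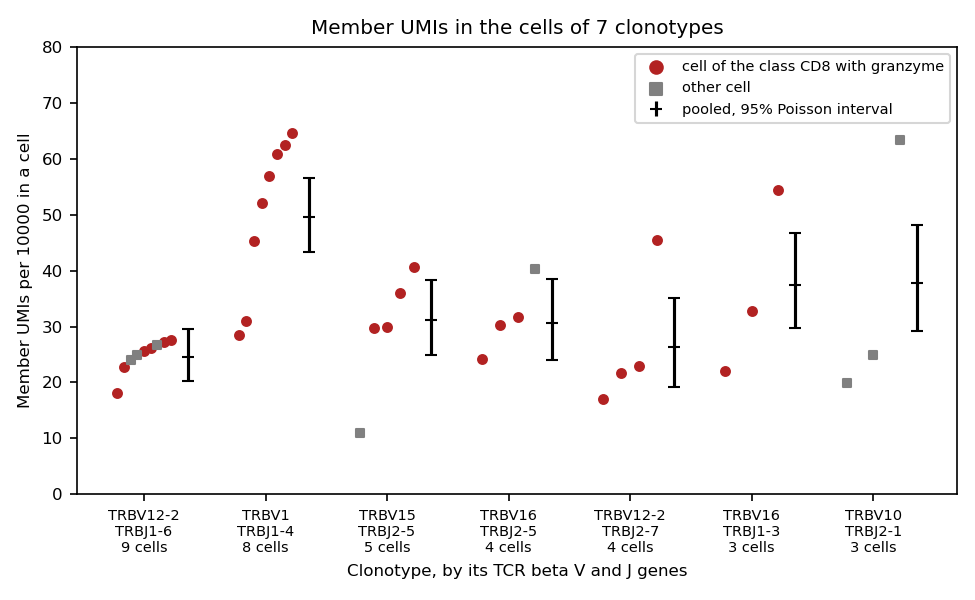
Member UMIs per 10000 (y axis) in every cell of the 7 clonotypes with at least 3 cells, named by their T cell receptor beta V and J genes; points within a clonotype are ordered by value, and the black mark gives the pooled rate with its 95% Poisson interval. All 8 cells of the TRBV1 clonotype lie above all 9 cells of the largest clonotype, the nearest cells by less than counting error.

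A part of the T cells, 346 of 1072, had fewer than 10% of their UMIs in ribosomal protein genes (3.16% pooled, against 31.7% in the 726 others), with a lower median depth (3056.5 against 6052 UMIs), more mitochondrial UMIs (3.12% against 1.51%) and a clonotype in 30.3% against 93.3%. They had 38.8 (37.7 to 39.97) member UMIs per 10000 and the others 31.3 (30.8 to 31.8), a ratio of 1.24 (1.20 to 1.28), which turned to 0.884 once ribosomal protein and mitochondrial UMIs were left out of the denominator. The members' share past 1.5-fold higher was below that of all genes: 15 of 42 (35.7%) were past 1.5-fold higher and 12 (28.6%) lower, where 51.1% and 19.6% of 8655 genes were, and the medians were 1.34 and 1.53. Within a role the members went both ways. Isg15 had 5 UMIs in low-ribosomal and 212 in ordinary cells (0.102, 0.0328 to 0.242), and Parp14 144 and 281 (2.22, 1.80 to 2.72). Ifit2 was at 3.44 (2.52 to 4.69) and Ifit1 at 0.494 (0.285 to 0.806), and among the GTPases Iigp1 was at 3.04 (2.31 to 3.99), Gbp4 at 2.32 (1.93 to 2.79) and Ifi47 at 0.318 (0.261 to 0.384).

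Also higher were the RNA-editing enzyme gene Adar (2.38, 1.88 to 3.0), Slfn5 (2.32, 1.67 to 3.20), the RNA-activated kinase gene Eif2ak2 (2.19, 1.55 to 3.05), Stat2 (2.11, 1.5 to 2.94), Ifih1 (1.97, 1.35 to 2.83) and Trim30a (1.94, 1.65 to 2.28), and also lower were Bst2 (0.284, 0.203 to 0.388), Oas3 (0.316, 0.124 to 0.676), Irf7 (0.419, 0.292 to 0.585), Socs1 (0.445, 0.310 to 0.622), Rtp4 (0.518, 0.342 to 0.758) and Igtp (0.552, 0.415 to 0.723). In the pathway list 20 of 46 genes were past 1.5-fold higher and 11 lower, where 51.1% and 19.6% of all compared genes were. The kinase genes Jak1 (2.47, 2.32 to 2.64) and Jak2 (3.35, 2.82 to 3.98) lay on the higher side. Ifi27l2a (0.191, 0.147 to 0.245) and the immunoproteasome gene Psmb8 (0.238, 0.198 to 0.284) lay on the lower side. The low-ribosomal share was 38.8% of CD4 cells, 32.4% of CD8 cells without granzyme, 9.26% of CD8 cells with granzyme and 26.7% of Cd79a cells. Within cells of ordinary share the rates were 35.3 (34.2 to 36.4), 28.3 (27.7 to 28.9), 40.2 (38.6 to 41.8) and 24.4 (22.6 to 26.3) per 10000, in the same order of classes. Of the receptors and kinases, Ifnar1 was at 1.73 (1.40 to 2.13), Ifnar2 at 1.39 (1.13 to 1.70), Ifngr1 at 1.14 (1.04 to 1.26), Ifngr2 at 2.47 (1.83 to 3.32), Il10rb at 1.12 (0.881 to 1.41) and Tyk2 at 2.39 (1.74 to 3.26) in low against ordinary cells.

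Outside the T and Cd79a classes the members came in other combinations. Erythroid markers led in 24 cells without Cd4, Cd8a, Cd8b1 or Cd79a UMIs, with 4 globin genes giving 8166 of every 10000 UMIs. Their member rate was 36.4 (32.7 to 40.5) per 10000 of all UMIs. With globin taking most of these UMIs, this rate cannot be set directly against that of T cells. Of the 338 member UMIs 3 genes made up nearly all, and 37 members were at 0. The share of all genes at 0 in these cells is not given, and few UMIs remained beside globin. The count of members at 0 is therefore not read as a trait of these cells. Rsad2, which makes a nucleotide that stops viral RNA polymerases, had 152 UMIs in 21 of 24 cells, 16.4 (13.9 to 19.2) per 10000, whereas all 1072 T cells had 27 UMIs, 0.0450 per 10000. These 24 cells held 152 of the 201 Rsad2 UMIs found in all cells. Isg20 had 119 UMIs in 23 cells and Isg15 54 UMIs in 13 cells. The ISG15-conjugating enzyme gene Ube2l6 of the pathway list had 180 UMIs in 24 of them and 17 in the T cells. In contrast Sp100, found in most T cells, had 1 UMI, and Irf1 and Bst2 had 0. Per 10000 of all UMIs, globin included, their intervals lay below the T cell levels. Levels without globin UMIs were not computed, so whether these members were lower among the other RNA was not tested. Ifit1 and Ifit3 had 0 too, but at this depth their upper limit of 0.398 per 10000 lay above the T cell levels of 0.294 and 0.282, so no difference was detectable. The Rsad2 promoter stretch printed above holds 1 response-element match, and the free RNA carried Rsad2 at 0.0600 per 10000.

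The 19 cells led by neutrophil markers had 48.9 (43.6 to 54.7) member UMIs per 10000, with Oasl2, an OAS-like protein, first at 54 UMIs in 16 cells (8.61 per 10000 against 0.0868 in T cells) and Rtp4 second at 28 UMIs in 12 cells. Bst2 and Ifi203, frequent in T cells, had 0 UMIs there. Both groups are small and share the library, and all 24 and 19 cells had low ribosomal shares (0.826% and 2.72% of UMIs pooled). They were grouped after the data had been seen, by the marker list with most UMIs. The 16 cells led by platelet markers had 17.6 (13.1 to 23.0) member UMIs per 10000, the lowest of these marker-led groups. This interval overlaps that of free RNA (20.6, 19.6 to 21.6), so the sum cannot be told from background. Igtp was first among their members, at 20 UMIs in 12 cells (6.62 per 10000 against 0.480 in free RNA).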

How the data were processed

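Blood T cells of 1 vehicle-treated SCLC mouse were profiled with a 10x Genomics gene expression and T cell receptor library. The authors deposited a matrix of UMI counts for all barcodes, neither normalized nor filtered (Cell Ranger 4, per the file headers; GRCm38, per the submitters' processing notes), and a contig table with read and UMI counts and clonotypes. The members, role groups, pathway and marker lists were chosen with earlier results of these data known. Cells are barcodes at or above the 99th percentile of the 3000 largest totals divided by 10 (1331 UMIs); the matrix holds 12855001 UMIs in 300213 barcodes. Scrublet in Scanpy 1.11.5 predicted 10 doublets, which were kept. Levels are pooled UMIs per 10000; genes with 50 UMIs in both groups together were compared, and 1.5-fold counts as past the threshold. Named genes are the 10 most frequent members, members past 1.5-fold with non-overlapping intervals (at most 10 a direction), the 10 largest ratios among members and other genes in the high cells, and the receptors and kinases; some results are not reported here. Python 3.11.15, SciPy 1.17.1 and pandas 2.3.3 were used. The ratio step was tested on simulated Poisson counts, which leave out the spread between cells, so the intervals were not tested for it. Promoters and gene positions are RefSeq GRCm38.p6, and the genome of a later build was not used. The alternatives were 2 marker UMIs per class, ordinary ribosomal share, cells with a clonotype, another denominator, means over cells, thinning, predicted doublets, Sp100 or the 5 highest cells left out, a lower and a higher UMI limit per cell, free RNA subtracted, a minimum of 20 UMIs per gene, 2-fold, and for the high cells the top 5% or 20%, another seed and low-ribosomal cells kept. One choice was changed at a time, except that thinning also left out cells below the thinning depth.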

Additional observations from a re-analysis of the deposited data

How the results depend on the processing

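Over the alternatives run, the ratio of the member sums ranged from 1.20 to 1.42 for CD8 with against without granzyme, 1.07 to 1.28 for CD4 against CD8 without granzyme, 0.664 to 0.817 for Cd79a against T classes, 0.795 to 0.989 for larger against single-cell clonotypes and 0.884 to 1.40 for low against ordinary ribosomal share. 73 of 101 recomputed values stayed within the interval or, for counts and spreads, within 1.5 times of the reported one. The cause of the other moves was not tested. With at least 2 marker UMIs the ratio was 1.28 for CD4 against CD8 without granzyme. Within cells of ordinary ribosomal share the ratio was 1.42 for CD8 with against without granzyme. Without ribosomal protein and mitochondrial UMIs in the denominator the ratio was 1.20 for CD8 with against without granzyme, 1.07 for CD4 against CD8 without granzyme, 0.712 for Cd79a against T, 0.864 for larger against single-cell clonotypes, 0.884 for low against ordinary ribosomal share (reversed direction). As means over cells the ratio was 1.28 for CD8 with against without granzyme, 1.19 for CD4 against CD8 without granzyme, 0.903 for larger against single-cell clonotypes. After thinning to 2500 UMIs the ratio was 1.18 for low against ordinary ribosomal share. In cells with a clonotype the ratio was 1.40 for low against ordinary ribosomal share. Without Sp100 the ratio was 1.24 for CD8 with against without granzyme, 0.882 for larger against single-cell clonotypes, 1.12 for low against ordinary ribosomal share. Without the 5 highest cells of each group the ratio was 1.25 for CD8 with against without granzyme, 0.664 for Cd79a against T, 0.908 for larger against single-cell clonotypes. Within CD8 cells with granzyme (added after the data were seen) the ratio was 0.795 for larger against single-cell clonotypes. At 2-fold the members past the threshold were 7 higher (CD8 with granzyme against without), 4 higher (CD4 against CD8 without granzyme), 0 lower (CD4 against CD8 without granzyme), 3 higher (Cd79a against T classes), 1 higher (clonotypes of 2 or more against 1), 5 lower (clonotypes of 2 or more against 1), 8 higher (low against ordinary ribosomal), 7 lower (low against ordinary ribosomal). Within cells of ordinary ribosomal share the members past the threshold were 0 lower (CD4 against CD8 without granzyme). The share of all genes past the threshold is not given for these settings. These counts therefore show only how they move with the setting, not whether members exceed other genes. No paired analysis was possible because the series analysed here holds 1 sample. Depth limits the sparse members: with a median of 3934.5 UMIs a cell, genes such as Ifi44 and Oas2 could not be compared.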
